A study of Mus musculus with 6 samples.

Results

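The genes described here are 40 genes of endothelial cells, which line blood vessels, and of the endocardium, the endothelium that lines the heart. They were listed by name from their known roles, with earlier results of these data in view, and comprise 15 junction and surface proteins, 7 growth factor receptors, apelin and its receptor, 6 transcription factors, 2 endocardial, 3 arterial and 2 venous genes, and 3 lymphatic or scavenger receptors. Of the 40, 39 were matched to a probe through its RefSeq accession, out of 21800 genes tested on the array, and all 39 were well above background on all 6 arrays. Npr3os was not analysed here. Expression was compared between hearts of wild-type mouse embryos and of Arid3b-null embryos, which lack a working copy of Arid3b, a transcriptional regulator whose AT-rich interaction domain binds DNA. All hearts were taken at embryonic day 9.5 and held the heart tube together with the pharyngeal mesoderm and endoderm under it, so the endothelium of heart and pharynx was measured together. Each group had 3 samples, each of them RNA from a pool of 4 embryos on its own Agilent single-colour array. The allele, the strain and the sex of the embryos are not given in the sources used here.

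Endothelial cells arise from mesoderm under the ETS factor Etv2, and later ETS factors such as Erg and SOX factors of the F group (Sox7, Sox17, Sox18) hold their identity. Vascular endothelial growth factor (VEGF) acts on them through Kdr and Flt1, angiopoietins through Tek with the related receptor Tie1, and bone morphogenetic proteins of the circulation through Acvrl1 with its co-receptor Eng. Arterial endothelium is marked by ephrin-B2 (Efnb2) and venous endothelium by its receptor Ephb4, and in the endocardium the factor Nfatc1 marks cells that form the valves.

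Levels are given as log2 signal relative to the 75th percentile of the same array, so that 0 is that percentile, and can be compared between pools for a gene but not between genes, whose probes differ in brightness. Changes are null minus wild type on the log2 scale, with the moderated standard error (SE) of limma. A gene was called higher or lower at a Benjamini-Hochberg adjusted p below 0.05 over all 21800 genes. As a check of the labels, Arid3b itself read 2.91, 3.4 and 3.69 in wild-type pools 1, 2 and 3 and 1.08, 0.52 and 0.45 in null pools 1, 2 and 3, a fall of 6.27-fold (limma adjusted p = 0.00194). The 16 cardiomyocyte markers had a mean level of 5.41 to 5.53 in the wild-type pools and 5.39 to 5.63 in the null pools, and all were measured. Their median change was -0.04, with 1 called higher (6.64% of all genes tested were) and 0 lower (3.81% of all). The 75th percentile itself was 9.5, 9.57 and 10.16 in the wild-type pools and 9.47, 9.29 and 9.02 in the null pools. Each of the 3 slides carried 2 like-numbered pools, 1 of each genotype, always with the wild type in the same place, so the effects of place and of genotype cannot be told apart. Null pool 3 stood apart in trophoblast genes: the median of 9 such genes lay 3.6 above the wild-type mean there, 1.27 above it in null pool 2 and -0.13 from it in null pool 1.

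RefSeq promoter windows (build GRCm38.p6, the 250 bases before the start of transcription) were at hand for 22 of the 39 measured genes, 27 windows in all. Those of the 4 called genes with a single start are printed, as the called genes are the ones that the results turn on. Of the other called genes, Erg had 3 starts, and Sox7, Sox17, Vwa1 and Acvrl1 had no window at hand. The printed windows are written 5′ to 3′ on the strand of the gene, with each GGAAG on either strand in capitals (CTTCC where it lies on the other strand). GGAAG is a form of the core that ETS factors recognise, and other forms were neither marked nor counted.
Etv2, called lower, chr7:30635853-30636102, minus strand: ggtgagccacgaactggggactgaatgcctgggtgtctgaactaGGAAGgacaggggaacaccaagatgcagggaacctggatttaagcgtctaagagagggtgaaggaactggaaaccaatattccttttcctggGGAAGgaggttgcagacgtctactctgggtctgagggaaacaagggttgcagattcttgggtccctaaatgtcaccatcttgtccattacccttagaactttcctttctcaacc
Stab2, called higher, chr10:87007943-87008192, minus strand: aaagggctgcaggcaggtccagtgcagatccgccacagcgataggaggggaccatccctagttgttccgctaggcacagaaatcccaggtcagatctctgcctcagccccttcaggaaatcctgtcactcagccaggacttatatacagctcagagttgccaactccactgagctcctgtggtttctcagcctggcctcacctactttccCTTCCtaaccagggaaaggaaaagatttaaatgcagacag
Stab1, called higher, chr14:31168642-31168891, minus strand: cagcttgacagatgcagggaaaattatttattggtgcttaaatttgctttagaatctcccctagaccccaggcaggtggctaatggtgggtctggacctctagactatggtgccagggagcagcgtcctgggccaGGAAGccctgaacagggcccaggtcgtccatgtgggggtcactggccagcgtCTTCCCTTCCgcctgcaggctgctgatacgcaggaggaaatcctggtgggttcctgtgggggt
Apln, called higher, chrX:48034854-48035103, minus strand: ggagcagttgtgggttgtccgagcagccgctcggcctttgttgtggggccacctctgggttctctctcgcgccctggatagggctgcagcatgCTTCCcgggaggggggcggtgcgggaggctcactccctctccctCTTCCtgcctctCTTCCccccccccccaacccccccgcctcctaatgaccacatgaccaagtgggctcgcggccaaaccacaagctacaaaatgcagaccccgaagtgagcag
GGAAG occurred 2 times in the window of Etv2, 1 time in that of Stab2 and 3 times each in those of Stab1 and Apln. It is a common word: 21 of the 27 windows (77.8%) held it, against 64.1% of 32851 windows of all genes. The SOX core ACAAT was present in 6 of the 27 windows (22.2%; 27.7% of all), in none of the printed ones. The letters ACGTG, a form of the core of the hypoxia response element, were found in 0 of the 27, against 16.6% of all windows. Other forms of that core were not counted. These are matches of letters on either strand in a short window and do not locate a binding site.

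Most of the endothelial genes were not called, and those that were lay nearly all on the higher side. In the null hearts 8 of the 39 measured genes were called higher (6.64% of all genes tested were) and 1 was called lower (3.81% of all). The 8 were the scavenger receptors Stab2 and Stab1, the matrix protein Vwa1, the transcription factors Sox7, Sox17 and Erg, the peptide Apln and the receptor Acvrl1, and the gene called lower was Etv2. Over the 39 genes 27 changes were positive, with a median of 0.38 against a median of 0.03 over all genes. All 3 null pools lay above all 3 wild-type pools for 14 of the 39 (18.0% of all genes) and below them for 2 (14.9% of all), or 16 in either direction (32.9% of all). Over all genes 1448 were called higher and 831 lower, but 1105 higher and 1399 lower when each array was scaled to its median. That scaling moved the median of all genes to -0.11 and of the 39 genes to 0.24, and left the same 8 called higher, with Etv2 and Nos3 called lower. In whole tissue more cells of a type and more RNA per cell cannot be told apart.

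**Figure D1:**
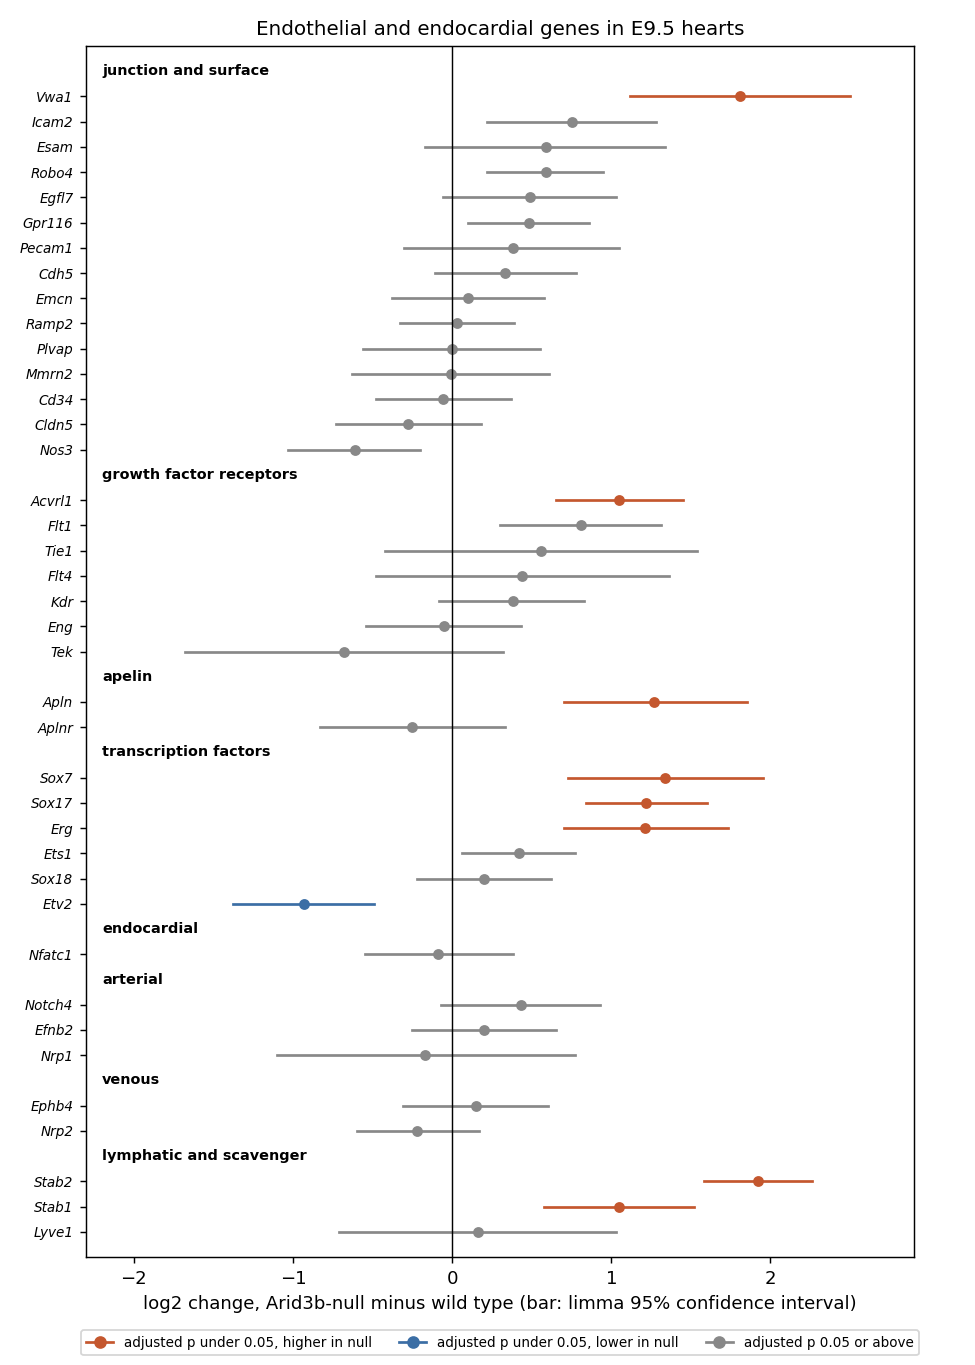
Change of each of the 39 measured genes between the Arid3b-null and the wild-type hearts. The x axis is the log2 change, null minus wild type, points are the limma estimates from 3 pools per group, bars are 95% confidence intervals, colour marks the call, and genes are grouped by role. The 8 genes called higher lie between 1.05 and 1.92, the gene called lower, Etv2, lies at -0.93, and the intervals of the arterial, venous and endocardial genes all include 0.

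The counts were smaller in a model with a slide term or when a pool was left out. Pools sharing slide 1, 2 or 3 did not vary alike: their deviations from the group means correlated at -0.41, -0.09 and -0.41. In a limma model with slide as a blocking term, 3 genes were called higher, Stab2, Sox17 and Vwa1 (2.47% of all genes were), and 0 lower (0.931% of all), with 11 and 2 genes at an unadjusted p below 0.05. Within slides 1, 2 and 3 the median difference over the 39 genes was 0.39, 0.36 and 0.37, against -0.11, 0.09 and 0.13 over all genes. The null array exceeded its wild-type neighbour by 2.06, 1.91 and 1.79 for Stab2, by 1.36, 1.02 and 1.28 for Sox17 and by 2.54, 1.92 and 0.97 for Vwa1, while for Etv2 the differences were -1.34, -0.86 and -0.6. Where groups are fully apart the sign within slides follows from that. Omitting wild-type pool 2 left 3 genes called higher, and omitting null pool 2 left 4, while over all genes each omission lowered the count from 1448 to 592. Without null pool 3, the one with the most trophoblast signal, 6 were called higher (763 over all genes) and Etv2 was still called lower. Null pool 2, with a trophoblast median 1.27 above the wild-type mean, stayed in that fit.

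The transcription factors held the calls in both directions. Etv2, the ETS factor that starts the endothelial and blood programme and is normally switched off afterwards, read 0.49, 0.45 and 0.28 in the wild-type pools and -0.85, -0.41 and -0.32 in the null pools. The groups did not overlap, and the change of -0.93 (SE 0.19) is a 1.91-fold lower level, with limma adjusted p = 0.0246. A second Etv2 probe read -0.98, -0.86 and -0.52 against -1.91, -1.82 and -1.73, a change of -1.03 (SE 0.18). The direction was thus the same on both probes. The call was lost under slide blocking (limma adjusted p = 0.109), on omission of any wild-type pool or of null pool 2 (up to 0.0915) and with no filter on dim probes (0.068).

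Sox17, an F-group SOX factor of arterial and endocardial precursor cells that endoderm also makes, read -1.88, -1.48 and -1.74 in the wild-type pools and -0.52, -0.47 and -0.46 in the null pools. The null pools lay within 0.06 of each other and began 0.97 above the highest wild-type pool. The rise of 1.22 (SE 0.16) was 2.33-fold with limma adjusted p = 0.00588, and the call held on omission of each pool in turn and under slide blocking (0.0417). Its second probe changed by 1.12 (SE 0.19). Sox7, its close relative, read -0.84, -0.82 and -1.6 against -0.05, 0.33 and 0.48, a 2.53-fold rise (1.34, SE 0.26, limma adjusted p = 0.0215). The lowest Sox7 value was that of wild-type pool 3, and the call ended on omission of null pool 3 or of pool 2 of either genotype (up to 0.0762), under slide blocking (0.0625) and with no filter (0.056). Sox18, the third factor of the group, was not called: its change was 0.20 with a 95% interval from -0.22 to 0.62.

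Erg, the ETS factor that maintains endothelial junction genes in mature vessels, read -2.89, -3.11 and -3.63 in the wild-type pools and -1.87, -2.17 and -1.94 in the null pools. The groups were apart by 0.71, and the rise was 2.32-fold (1.21, SE 0.22, limma adjusted p = 0.0179). A dimmer Erg probe changed by 0.87 (SE 0.42) and was not called, with a limma adjusted p = 0.236 over probes. The call of Erg ended under slide blocking (0.0544) and on omission of wild-type pool 2 or null pool 3 (up to 0.0638). Ets1, another ETS factor of endothelium and of other cells, read 0.65, 0.73 and 0.53 against 0.96, 1.04 and 1.16. Its groups did not overlap, but the change of 0.42 (SE 0.15) was not called (limma adjusted p = 0.128), and a second probe changed by 0.09.

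Some of these factors are also made by other cells whose markers moved. Megakaryocytes, which make Erg and Ets1 too, were represented by 16 markers, of which 15 were called higher, with a median change of 2.33 and a mean level of -2.56 to -2.08 in the wild-type and -0.1 to 0.5 in the null pools. Among the calls with the smallest p were the platelet receptor subunits Gp1ba (2.65, SE 0.16) and Gp6 (3.06, SE 0.23) and the platelet chemokine Pf4 (3.65, SE 0.32). Of 13 measured hepatic and visceral endoderm markers 4 were called higher, Rbp4, Hnf4a, Apoe and Afp, with a mean level of -3.43 to -2.97 against -2.28 to -1.86. Of 13 measured primitive erythroid markers 12 had a positive change, with a median of 1.03 and a mean level of 0.6 to 1.53 against 1.78 to 2.76. Of these 3 were called higher (6.64% of all genes tested were), Gata1, Gfi1b and Nfe2. In limma 11 had an unadjusted p below 0.05 on the higher side, as did 3294 of all 21800 genes. The part of these cells in the changes of Sox7, Sox17 and Erg was not tested.

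**Figure D2:**
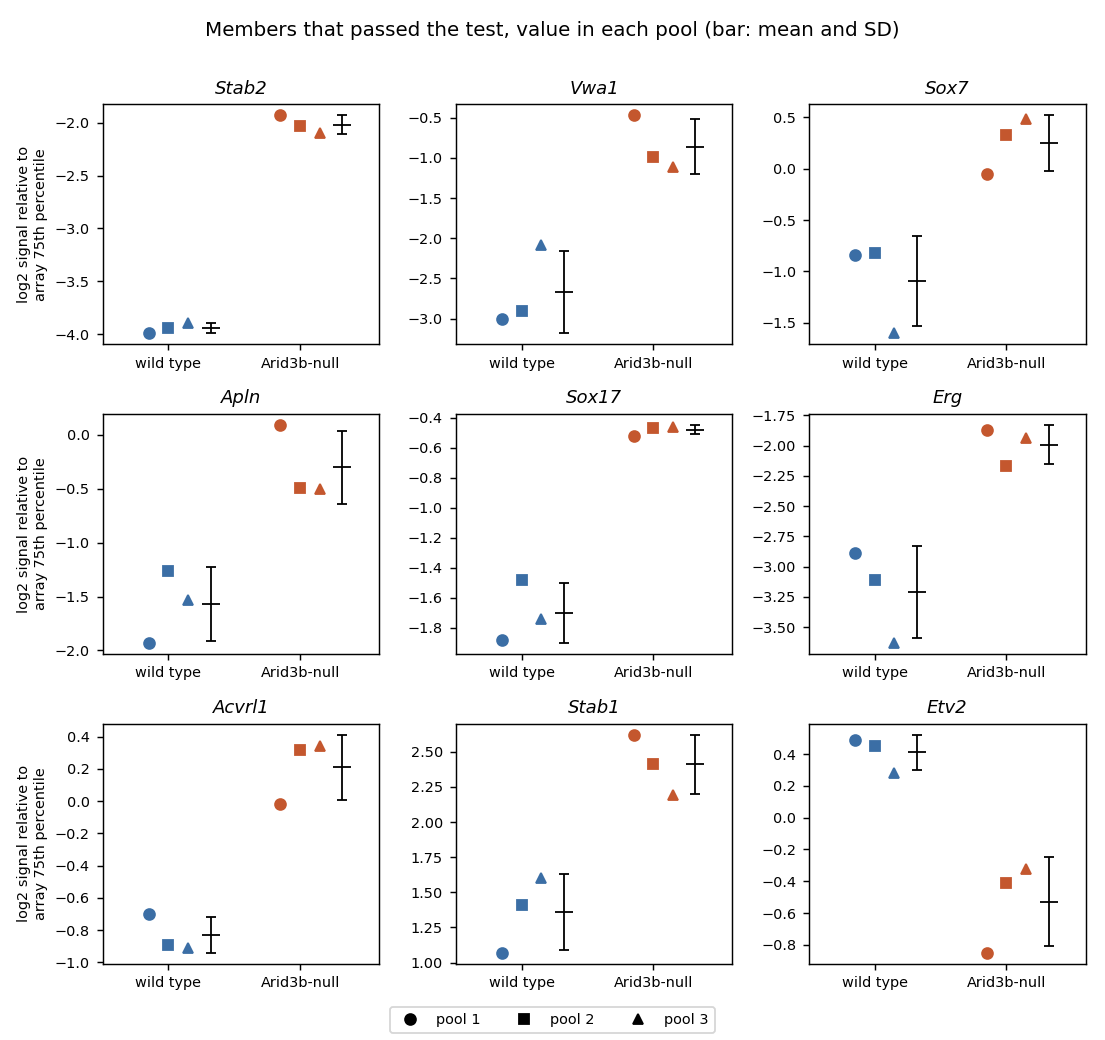
The 9 genes that were called, with the value of every pool. The y axis of each panel is log2 signal relative to the 75th percentile of the array, on a scale of its own. Symbols mark pools 1, 2 and 3 of each genotype, and bars give the mean and SD of the 3 pools. In every panel the wild-type and the null pools are apart, with the smallest gaps in Stab1 (0.59), Etv2 (0.6) and Acvrl1 (0.68).

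Of the 7 growth factor receptors 1 was called, on the higher side (6.64% of all genes tested were), and their median change was 0.44. Acvrl1, the endothelial receptor for Bmp9 and Bmp10, read -0.7, -0.89 and -0.91 in the wild-type pools and -0.02, 0.32 and 0.34 in the null pools. All null pools lay above all wild-type pools, and the rise was 2.07-fold (1.05, SE 0.17, limma adjusted p = 0.0114). Slide blocking ended the call (0.0739), as did omission of pool 2 of either genotype (0.0552 each). Eng, which presents the same ligands to Acvrl1, read 1.34, 1.67 and 2.01 against 1.73, 1.68 and 1.45. Its null pools lay inside the wild-type range, with a change of -0.05 and a 95% interval from -0.54 to 0.43.

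Neither VEGF receptor passed the threshold. Flt1, which binds VEGF tightly and limits its signal, read 1.42, 1.34 and 1.02 in the wild-type pools and 1.72, 2.13 and 2.37 in the null pools. The groups did not overlap, yet the change of 0.81 (SE 0.22) had limma adjusted p = 0.0573, and it was called under 7 alternatives, among them quantile normalization (0.0392) and the authors' value table (0.0423). Kdr, the main signalling receptor, read 2.71, 2.28 and 2.08 against 2.77, 2.67 and 2.76, a change of 0.38 (SE 0.20, limma adjusted p = 0.268). Wild-type pool 1 was within the null range on that probe. A second Kdr probe, printed in 10 spots on each array, read 1.92, 2.46 and 2.07 against 2.95, 2.64 and 2.72. On it the groups were apart, with a change of 0.61 (SE 0.20, limma adjusted p = 0.0907 over probes). Its spots had an SD of 0.05 to 0.07 within an array, a measure of spot noise alone. Flt4, the receptor for Vegfc, changed by 0.44 (SE 0.39) and was not called.

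The angiopoietin receptor Tek and its partner Tie1 varied widely between pools of a genotype. Tie1 read 0.18, 0.86 and 1.51 in the wild-type pools and 2.14, 1.2 and 0.89 in the null pools. Tek read -2.5, -1.67 and -1.17 against -1.7, -2.67 and -3.01. Both genes overlapped between the groups, and neither was called (Tie1 0.56, SE 0.42, limma adjusted p = 0.444 and Tek -0.68, SE 0.43, limma adjusted p = 0.355). Over the 6 pools their difference had an SD of 0.68, rank 490 of the 741 pairs of measured genes (median 0.55), but within each genotype it varied little. Relative to its wild-type mean, Tie1 minus Tek was 0.05, -0.1 and 0.05 in the wild-type pools and 1.22, 1.24 and 1.26 in the null pools. This pair was picked out after its values were seen, each gene had 1 probe, and the difference is given as a description without a test.

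The ligands of these receptors were a separate list of 23 genes, 22 of them measured. Of the 22, 6 were called higher (6.64% of all genes tested were) and 0 lower (3.81% of all). At an unadjusted p below 0.05 in the limma fit 9 were higher (3294 of all 21800 genes were) and 0 lower (2572 of all). The median change was 0.41. Vegfa, the main ligand of Kdr and Flt1, read 0.96, 1.27 and 1.09 in the wild-type pools and 3.46, 3.23 and 2.92 in the null pools, a change of 2.10 (SE 0.19, limma adjusted p = 0.00146). Adrenomedullin (Adm), whose receptor needs Ramp2, changed by 2.06 (SE 0.19, limma adjusted p = 0.00159). In both the groups were 1.65 apart. Sema3e, a repulsive guidance cue for endothelium, changed by 1.42 (SE 0.23) and Bmp10, the heart-derived ligand of Acvrl1, by 0.96 (SE 0.17). The remaining calls were Tgfb1 and Slit2. Vegfc changed by 0.55 (SE 0.17) and the angiopoietins Angpt1 and Angpt2 by 0.44 and 0.08, none of them called. Under slide blocking 3 of the ligands were called higher (2.47% of all genes were), and on omission of null pool 3 it was 4 (763 over all genes). Beside them, 18 of 21 hypoxia target genes were called higher, with a median change of 1.92. Vegfa and Adm are themselves known targets of hypoxia-inducible factors, and the part of hypoxia in the endothelial genes was not tested.

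Apelin was called higher and its receptor was not called. Apln, a peptide made by sprouting endothelial tip cells, read -1.93, -1.26 and -1.53 in the wild-type pools and 0.09, -0.49 and -0.5 in the null pools. Null pool 1 was the highest, and the rise was 2.42-fold (1.27, SE 0.24, limma adjusted p = 0.0209). Its call ended under slide blocking (0.0715), on omission of wild-type pool 3 or null pool 2 (up to 0.0648) and with no filter on dim probes (0.0551). Aplnr read -1.17, -0.89 and -1.48 against -1.83, -1.4 and -1.06, which overlapped, with a change of -0.25 (SE 0.25, limma adjusted p = 0.566). A lower level of Aplnr was thus not shown. The peptide minus its receptor, relative to the wild-type mean, was -0.37, 0.02 and 0.34 in the wild-type and 2.32, 1.3 and 0.95 in the null pools, given here without a test.

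Among the 15 junction and surface genes Vwa1 alone was called higher, a share close to the 6.64% of all genes, and the genes most used to count endothelium were not. Pecam1, the adhesion molecule CD31, read -2.85, -2.2 and -1.89 in the wild-type pools and -1.55, -2.05 and -2.2 in the null pools, a change of 0.38 (SE 0.29, limma adjusted p = 0.453). Cdh5, the cadherin of endothelial junctions, read 0.29, 0.66 and 0.68 against 1.13, 0.78 and 0.72. Its null pools lay just above the wild-type pools, with a change of 0.33 and a 95% interval from -0.11 to 0.78. Over all roles, 19 of the 30 measured genes that were not called had a 95% interval within 1 log2 unit on either side of 0.

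Vwa1, a von Willebrand factor A domain protein of basement membranes, read -3.01, -2.91 and -2.08 in the wild-type pools and -0.47, -0.99 and -1.11 in the null pools. The nearest pools of the groups were 0.97 apart, and the rise was 3.50-fold (1.81, SE 0.29, limma adjusted p = 0.0115). The call held under slide blocking (0.0315) and ended on omission of 1 pool, wild-type pool 2 (0.0563). Wild-type pool 3 was the highest of its group and null pool 3 the lowest of its own.

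Icam2, an adhesion molecule for leukocytes, read 3.03, 2.93 and 2.7 against 3.19, 3.82 and 3.9, and Robo4, an endothelial guidance receptor, -0.43, -0.14 and -0.37 against 0.24, 0.22 and 0.37. Neither overlapped, and neither was called (limma adjusted p = 0.0795 and 0.056), although each passed under several alternatives. Gpr116, the adhesion receptor now named Adgrf5, changed by 0.48 (SE 0.16, limma adjusted p = 0.109). Esam, a junction protein that platelets also carry, changed by 0.59 (SE 0.32), and was called only when null pool 1 was left out (0.96, limma adjusted p = 0.0369). Null pool 1, at -0.45, was its lone low null value, against 0.61 and 0.73 in the others. Egfl7, an extracellular protein of growing vessels, changed by 0.49 (SE 0.23) and was not called.

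Nos3, the endothelial nitric oxide synthase, had the most negative change of the 15, of which 10 were positive. It read 2.52, 2.99 and 2.65 in the wild-type pools and 2, 2.18 and 2.14 in the null pools, without overlap. The change of -0.61 (SE 0.18) had limma adjusted p = 0.07, and it was called under median scaling, normexp background correction, a trended prior and array weights (0.0362 to 0.048). A second Nos3 probe, in 10 spots per array, read 0.2, 0.94 and 1.28 against 0.27, 0.02 and -0.38. That probe overlapped between the groups and changed by -0.84 (SE 0.30). The other 6 junction and surface genes, Emcn, Cldn5, Plvap, Cd34, Ramp2 and Mmrn2, had changes from -0.28 to 0.10. Plvap, the protein of fenestral diaphragms, showed no mean change (0.00, 95% interval -0.56 to 0.55), with wild-type values from 2.92 to 3.77.

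No arterial, venous or endocardial gene of the set was called (6.64% of all genes tested were called higher and 3.81% lower). On the probe that stood for each gene, none had an unadjusted p below 0.05 in limma. Efnb2 read 1.48, 1.88 and 1.69 in the wild-type pools and 2.16, 1.72 and 1.75 in the null pools (0.20, SE 0.19, limma adjusted p = 0.564). Ephb4 read 1.75, 2.19 and 1.92 against 2.37, 1.94 and 1.98 (0.15, SE 0.20, limma adjusted p = 0.686). Pool by pool the ligand and its receptor moved together: their difference, relative to its wild-type mean, stayed between -0.04 and 0.06 in the 6 pools. Its SD of 0.0391 was the smallest of the 741 pairs of measured genes, whose median SD was 0.55. The second probes of both genes did not show this. That of Efnb2 ran from -3.54 to -3.33 in the wild-type and from -3.04 to -2.9 in the null pools, without overlap. Its change was 0.44 (SE 0.15, limma adjusted p = 0.109 over probes). That of Ephb4 read -0.91, -0.38 and 0.02 against 0.22, -0.6 and -0.77. Notch4, an arterial Notch receptor, changed by 0.43 (SE 0.22), and the neuropilins Nrp1 and Nrp2, co-receptors for VEGF and semaphorins, by -0.17 (SE 0.40) and -0.22 (SE 0.17).

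**Figure D3:**
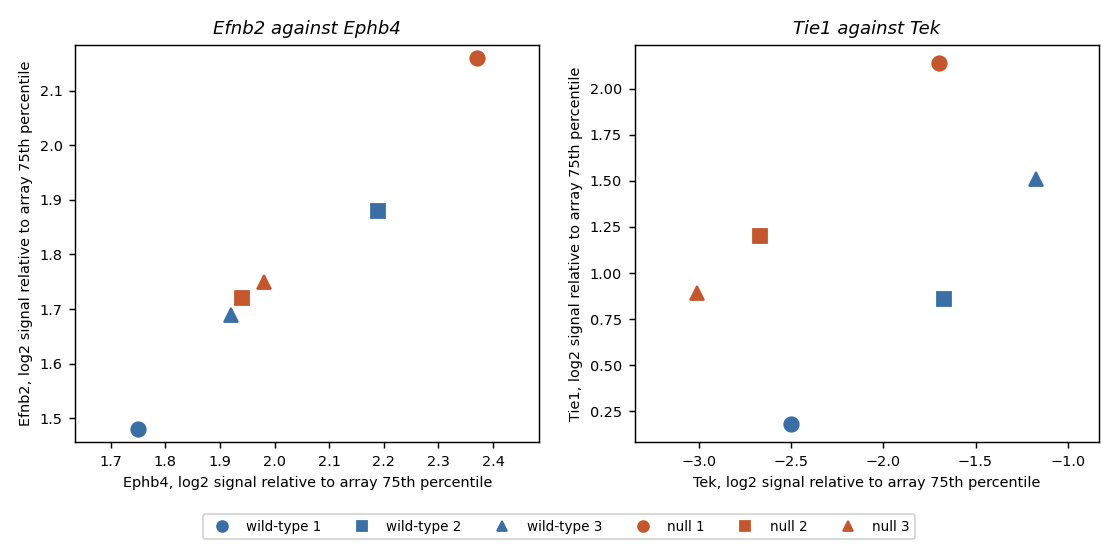
Efnb2 against Ephb4 (left) and Tie1 against Tek (right), with 1 point for each of the 6 pools and both axes in log2 signal relative to the 75th percentile of the array. Efnb2 and Ephb4 fall near 1 line with both genotypes mixed along it, whereas the null pools have 1.22 to 1.26 more Tie1 for their Tek than the wild-type mean.

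Nfatc1, the endocardial factor, read -0.3, 0.01 and -0.56 in the wild-type pools and -0.34, -0.57 and -0.2 in the null pools. The groups overlapped widely, with a change of -0.09 (95% interval -0.55 to 0.38), and its second probe changed by 0.14. A further list of 11 endocardial genes had a median change of 0.01 and 0 called in limma (6.64% of all genes tested were called higher and 3.81% lower). At an unadjusted p below 0.05 in limma, 2 were higher (3294 of all 21800 genes were) and 2 lower (2572 of all). The smallest p among the 11 belonged to Notch1 (0.86, SE 0.25, limma adjusted p = 0.0757), the Notch receptor of the endocardium, and Plxnd1 (0.59, SE 0.22, limma adjusted p = 0.133), the receptor of Sema3e. In 9 further arterial genes 0 were called, 1 had an unadjusted p below 0.05 and the median was 0.10. Foxc2 (0.59, SE 0.18) and Hey2 (0.35, SE 0.17) had the smallest p of these. In 3 further venous genes 0 were called, none at an unadjusted p below 0.05, with Nr2f2, the factor of venous identity, at 0.31 and Dab2 at 0.29.

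The scavenger receptors held the call with the smallest limma adjusted p of the set, that of Stab2. Of the called genes, Stab2, Stab1, Vwa1, Sox7, Apln and Acvrl1 each had 1 probe, in 1 spot per array. For these no second probe could be compared. Stab2, stabilin-2, takes up hyaluronan and other ligands in sinusoidal endothelium, and read -3.99, -3.94 and -3.89 in the wild-type pools and -1.93, -2.03 and -2.1 in the null pools. The pools of a genotype lay within 0.17 of each other and the genotypes were 1.79 apart. The rise was 3.79-fold (1.92, SE 0.14, 95% interval 1.58 to 2.26, limma adjusted p = 0.000798), and the call held under slide blocking (0.00781) and on omission of each pool in turn (up to 0.0072). Stab1, stabilin-1, which macrophages make as well as endothelium, read 1.07, 1.41 and 1.6 against 2.62, 2.41 and 2.19. Its rise was 2.07-fold (1.05, SE 0.20, limma adjusted p = 0.0209), and the call ended under slide blocking (0.093), on omission of wild-type pool 1 or 2 or null pool 2 (up to 0.0755) and with no filter on dim probes (0.0584). Lyve1, the hyaluronan receptor of lymphatic endothelium and of some macrophages, read -3.66, -3.59 and -4.28 against -3.95, -2.86 and -4.23. Those groups overlapped, with a change of 0.16 (SE 0.37, limma adjusted p = 0.828).

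Macrophage markers had a median change of 0.35, with 10 of the 12 measured positive. Of these 12, out of 16 listed, 2 were called higher and 1 lower, against 6.64% and 3.81% of all genes tested. Called higher were Fcer1g and Laptm5, which other blood cells share, and Lyz1 was called lower. The mean level of the 12 was -4.34 to -3.67 in the wild-type and -3.77 to -3.46 in the null pools. The pan-leukocyte gene Ptprc and the macrophage genes Fcgr1 and C1qa were not well above background on at least 3 arrays, and Cd68 was not analysed here. The macrophage receptor Csf1r read 1.5, 0.34 and -0.62 against -0.73, 1.24 and 1.96. The part of macrophages in the change of Stab1 was not tested.

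A further 32 endothelial genes outside the 40 changed by a median of 0.24. Of them 3 were called higher (6.64% of all genes tested were) and 1 lower (3.81% of all). Vwf, the von Willebrand factor stored by endothelium and by platelets, read 1.26, 1.5 and 1.99 in the wild-type pools and 3.11, 3.25 and 3.25 in the null pools (1.62, SE 0.21, limma adjusted p = 0.00567). The others called higher were Cd93, a surface lectin of endothelium and myeloid cells (0.89, SE 0.16), and Myct1 (1.12, SE 0.27). Tm4sf1, a tetraspanin-like surface protein of endothelium, was called lower (-1.45, SE 0.17, limma adjusted p = 0.00383), from -0.88, -1.17 and -1.2 to -2.51, -2.39 and -2.72. Cd93 and Myct1 lost their calls under slide blocking, and on omission of null pool 3 it was 2 genes that were called higher (763 over all genes). The part of platelets and megakaryocytes, whose 15 called markers are given above, in the change of Vwf was not tested.

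**Figure D4:**
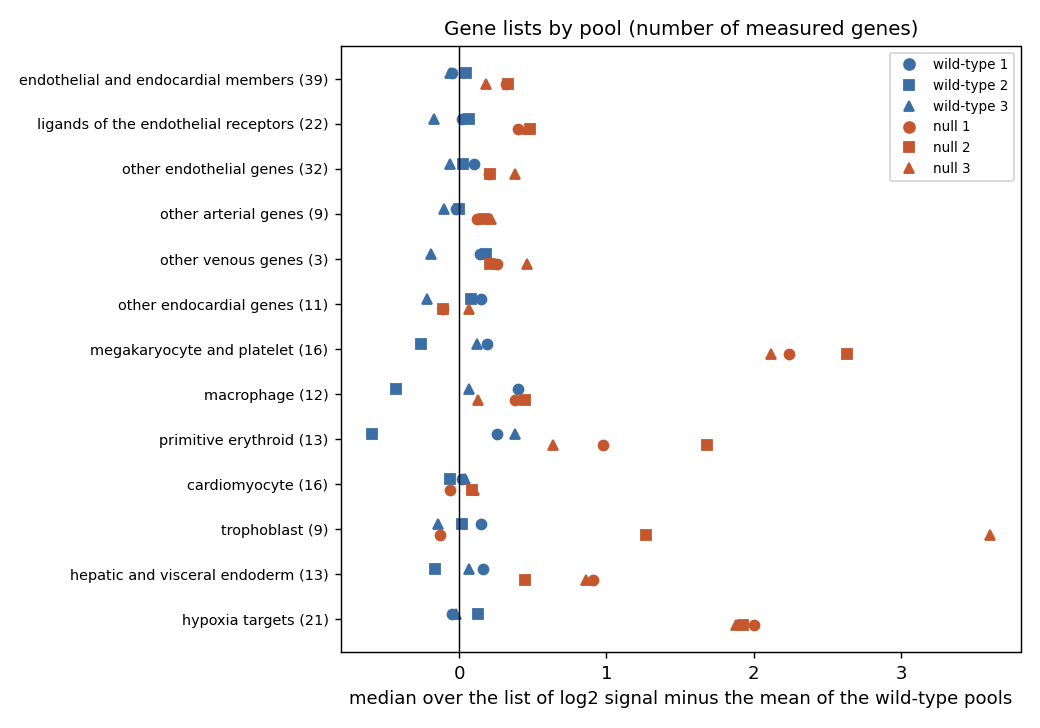
Gene lists by pool. The x axis is the median over the measured genes of a list (number in brackets) of the log2 signal minus the mean of the 3 wild-type pools, with 1 point for each of the 6 pools. The 39 endothelial and endocardial genes lie at 0.18 to 0.33 in the null pools, the 16 megakaryocyte genes at 2.12 to 2.63 and the 21 hypoxia targets at 1.88 to 2.

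Within a genotype the members did not vary more than other genes, with a median SD over the 3 pools of 0.24 in each genotype against 0.25 and 0.23 for all genes. Some of them varied in 2 opposite ways, while 20 of the 39 (51.3%, against 77.3% of all genes) followed neither. In 12 of the 39 (30.8%) the pools of both genotypes came in the same order as the 75th percentile of their arrays given above, as they did in 9.33% of all genes. The 12 were Pecam1, Cdh5, Plvap, Vwa1, Flt4, Tek, Tie1, Eng, Nrp1, Notch4, Stab1 and Stab2. Their median, relative to the mean of the 6 pools, was -0.59, -0.2 and 0.28 in the wild-type and 0.53, 0.07 and -0.1 in the null pools. In 7 others (17.9%; 13.4% of all genes), Esam, Icam2, Ramp2, Egfl7, Flt1, Acvrl1 and Etv2, the order was the reverse in both genotypes. Their median was -0.06, -0.32 and -0.51 against -0.09, 0.46 and 0.64. The groups were formed from these values, so the counts are a description, and the part of array brightness in the changes was not tested.

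**Figure D5:**
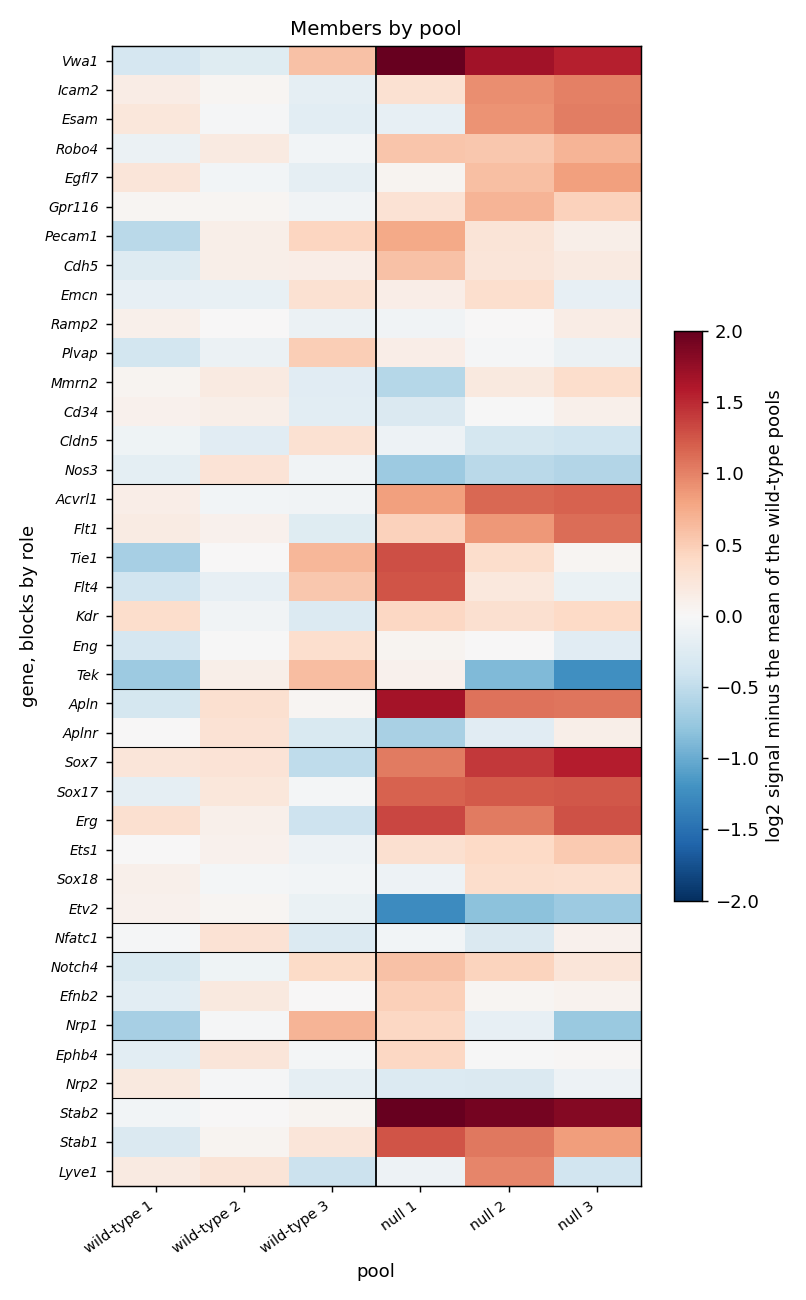
The 39 measured genes in the 6 pools, in blocks by role. Colour is the log2 signal minus the mean of the 3 wild-type pools, from -2 (blue) to 2 (red), and the vertical line parts the genotypes. Stab2, Vwa1, Sox7, Sox17 and Erg are red in all 3 null pools and Etv2 is blue in them, while Tie1, Flt4 and Tek are highest in wild-type pool 3 and null pool 1 of their groups.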

How the data were processed

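Spot intensities of 6 single-colour (Cy3) Agilent arrays were, per the file headers, background-subtracted with spatial detrending by the scanner software and not scaled between arrays. The authors' deposited log2 values, made by steps not given in the sources used here, served as an alternative. Flags of the same software, as deposited, gave spots above background and outliers.

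Each array's 75th percentile of log2 signal over non-control spots was subtracted, outlier spots were dropped and replicate spots averaged. Probes well above background on at least 3 of 6 arrays were kept, 26848 of 39429. The brightest kept probe stood for a gene, named through its RefSeq accession (table of GRCm38.p6; the headers name mm9, so no probe positions are given). The 2-sided comparison of genotypes used limma 3.58.1 (R 4.3.3, data.table version 1.17.8) with no block. Other probes were tested in a fit over all kept probes. No exact permutation test was used: 3 pools against 3 cannot go below 0.1.

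The 39 measured genes are all accounted for. Those called and the leading genes of each role have values in every pool. Of other lists, up to 4 called genes with the smallest p are given, or 2 where none was called, and any others named were chosen after their values were seen. A gene that this rule takes is not reported here. The genes and lists were chosen with earlier results of these data known. The fit was tested on simulated data.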

Additional observations from a re-analysis of the deposited data

How the results depend on the processing

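With 8 genes called higher, 1 called lower and a median change of 0.38, these were the values that differed. With no filter on dim probes 5 were called higher and 0 lower (13 and 2 at an unadjusted p below 0.05 in limma), Sox7, Apln, Stab1 and Etv2 dropping out while more genes were tested; over all genes 754 were called higher and 283 lower, against 1448 and 831. Median scaling, normexp, the trended and robust prior and array weights each called 2 lower, adding Nos3 (and 8 to 12 higher, the same 8 among them), and the median was 0.24 with median scaling, as all genes shifted to -0.11 (the median of all genes was 0.16 with normexp and 0.17 with no filter). Leaving out 1 pool gave 3 to 11 called higher (592 to 1174 over all genes), 0 to 1 called lower (241 to 579 over all genes) and a median of 0.25 to 0.39. The higher count was 3 on omission of wild-type pool 2 and 4 on omission of null pool 2, Etv2 was not called on omission of any wild-type pool or of null pool 2, and the median was 0.25 lacking wild-type pool 1 and 0.27 lacking null pool 1; for these the cause was not tested. Quantile normalization, the authors' value table, the mean over probes, keeping outlier spots and demanding signal above background on all 6 arrays gave 8 to 11 called higher, with the same 8 among them, and Etv2 alone called lower. No called gene changed sign under any alternative run.

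With the replicate block, which is also the slide, 3 genes were called higher and 0 lower (11 and 2 at an unadjusted p below 0.05 in limma). The numbers do not pair the samples: deviations from the group means correlated at -0.41, -0.09 and -0.41 across genes for pools 1, 2 and 3 of the same number, and wild-type pool 3 was closest to null pool 1 (0.49). With 3 arrays per group, changes below 2-fold were often not resolved: of the 30 genes not called, 11 had an interval reaching past 1 log2 unit.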
